A study of Mus musculus with 4 samples.

Results

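The genes of the general transcription machinery were examined for binding of RUVBL2 in the hypothalamus of wild-type mice, mapped by chromatin immunoprecipitation followed by sequencing (ChIP-seq). The members were all 105 protein-coding genes, of 21779 in a RefSeq gene table of GRCm38.p6, whose symbols begin with Gtf, Taf or Med followed by a digit, or with Polr1, Polr2 or Polr3. They comprised 23 Gtf genes, 24 Taf genes, 30 Med genes and 28 Polr genes. The families were selected on the peaks found at their genes in earlier results from the same lists, so their peak counts are given as a description and were not tested. The chromatin came from male C57BL/J mice 8 weeks old, and the series holds 2 RUVBL2 ChIP libraries and 2 input libraries, numbered 1 and 2 in each group. The inputs had no values of their own among those used. Tissue was fixed with 1% formaldehyde, and the antibody was directed against RUVBL2 itself. The labels give neither the number of animals nor any pooling, so the spread between the libraries may be technical. The whole hypothalamus was used, so binding in few cells and weak binding in many cannot be told apart. No RNA was measured, and the tissue label was therefore not checked against marker expression.

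Transcription by RNA polymerase II begins when TFIID, which holds the TATA-binding protein and its associated factors (TAFs), is joined at a promoter by TFIIA, TFIIB, TFIIE, TFIIF, TFIIH and the polymerase, with the Mediator complex linking them to activators bound elsewhere. RNA polymerase I, which transcribes ribosomal RNA, uses a TAF complex of its own called SL1, and RNA polymerase III, which transcribes tRNA and other small RNAs, uses TFIIIC and TFIIIB. RUVBL2 is an AAA+ ATPase that acts with RUVBL1 in the chromatin complexes INO80, SRCAP and TIP60 and, with the chaperone HSP90, in the R2TP complex that helps assemble RNA polymerase II.

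Promoters are shown here for the member with the best worst-case rank in the peak lists from each symbol family (Gtf2h3, Taf4, Med6 and Polr2m), for Taf5, which like Taf4 holds the YY1 motif, and for Med13l, which held no peak and had the highest CpG ratio among such members. Each run, from RefSeq (GRCm38.p6), covers 250 bases before to 30 bases after an annotated transcription start and is written 5′ to 3′ on the gene's strand. Capitals mark motif letters found on either strand. They are CCAAT, which the factor NF-Y binds, and CCGGAAG, which factors of the ETS family bind. They are also GGGCGG, the letters that Sp1 binds, then TATAAA, the letters of the TATA box, and a longer motif of YY1. The runs lie at chr5:124578898-124579177 (plus strand), chr2:179976617-179976896 (minus), chr12:81594979-81595258 (minus), chr9:71485954-71486233 (minus), chr19:47067498-47067777 (plus) and chr5:118560469-118560748 (plus).
Gtf2h3: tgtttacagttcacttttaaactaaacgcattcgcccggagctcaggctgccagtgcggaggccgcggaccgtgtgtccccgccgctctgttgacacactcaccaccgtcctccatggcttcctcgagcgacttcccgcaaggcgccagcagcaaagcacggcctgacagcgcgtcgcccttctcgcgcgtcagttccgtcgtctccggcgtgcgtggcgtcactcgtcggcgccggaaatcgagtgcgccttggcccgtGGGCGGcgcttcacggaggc
Taf4: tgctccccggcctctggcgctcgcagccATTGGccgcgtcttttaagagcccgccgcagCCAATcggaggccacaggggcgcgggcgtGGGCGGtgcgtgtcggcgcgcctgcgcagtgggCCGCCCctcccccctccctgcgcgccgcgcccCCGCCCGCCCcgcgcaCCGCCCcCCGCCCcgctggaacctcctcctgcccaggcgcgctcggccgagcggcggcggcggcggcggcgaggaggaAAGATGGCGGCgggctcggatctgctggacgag
Med6: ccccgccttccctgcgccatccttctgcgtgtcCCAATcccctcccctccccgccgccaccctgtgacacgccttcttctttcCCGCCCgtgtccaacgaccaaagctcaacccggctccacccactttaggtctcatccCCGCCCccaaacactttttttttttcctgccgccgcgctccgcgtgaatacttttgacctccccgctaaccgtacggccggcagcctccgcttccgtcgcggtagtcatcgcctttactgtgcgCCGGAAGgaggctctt
Polr2m: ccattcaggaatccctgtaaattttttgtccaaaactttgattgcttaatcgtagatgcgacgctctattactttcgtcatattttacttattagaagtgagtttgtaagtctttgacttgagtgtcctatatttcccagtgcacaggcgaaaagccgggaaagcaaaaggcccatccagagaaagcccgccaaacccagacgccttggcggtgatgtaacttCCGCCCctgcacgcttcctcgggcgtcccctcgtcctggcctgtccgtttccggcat
Taf5: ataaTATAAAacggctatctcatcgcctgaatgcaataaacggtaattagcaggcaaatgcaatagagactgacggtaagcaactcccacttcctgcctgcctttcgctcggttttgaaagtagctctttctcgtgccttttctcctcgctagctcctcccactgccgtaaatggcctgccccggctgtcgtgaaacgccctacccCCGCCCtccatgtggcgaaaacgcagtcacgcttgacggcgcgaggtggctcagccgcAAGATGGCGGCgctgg
Med13l: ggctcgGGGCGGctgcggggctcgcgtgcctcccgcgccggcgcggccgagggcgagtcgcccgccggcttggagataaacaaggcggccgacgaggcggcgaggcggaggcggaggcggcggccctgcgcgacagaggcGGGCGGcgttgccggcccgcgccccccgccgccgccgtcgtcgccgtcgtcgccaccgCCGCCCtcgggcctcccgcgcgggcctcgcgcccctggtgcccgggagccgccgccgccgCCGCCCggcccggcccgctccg

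Of the 105 members, 38 (36.2%, exact Clopper-Pearson 95% interval 27.0 to 46.2) held a shared region, against 17.2% of all protein-coding genes. A shared region is the joined interval of peaks of both libraries that overlap by at least 1 bp, and it was counted for a gene when its midpoint lay in the gene body or within 3 kb of a gene end. The list of replicate 1 placed a peak at 42 members (40%), against 20.9% of the whole gene table. The list of replicate 2 did so at 64 members (60.95%), against 32.6% of the table. At least 1 of the lists placed a peak at 67 members (63.8%), against 35.8% of the table. The members therefore lay above the whole gene table in each library and in the regions common to both. A shared region was held by 13 of 23 Gtf genes (56.5%, 34.5 to 76.8), 8 of 24 Taf genes (33.3%, 15.6 to 55.3), 8 of 30 Med genes (26.7%, 12.3 to 45.9) and 9 of 28 Polr genes (32.1%, 15.9 to 52.4). The Gtf genes had the highest share, and its interval overlapped that of each of the other families.

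**Figure D1:**
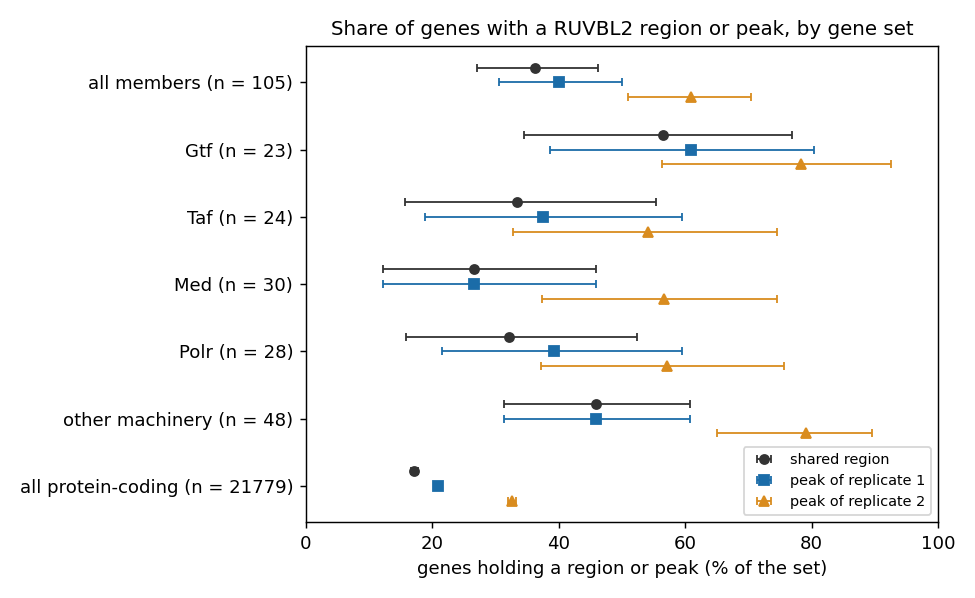
Share of genes (%) with a shared region (circles), a peak of replicate 1 (squares) or a peak of replicate 2 (triangles), with exact 95% intervals, for the members, their 4 symbol families, 48 other transcription machinery genes and all protein-coding genes. The Gtf genes lie furthest to the right among the families, and all protein-coding genes lie at 17.2%, 20.9% and 32.6%.

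Most of these genes have promoters rich in CpG, as do 84.5% of all protein-coding genes with a shared region. RefSeq promoters of 300 bases were matched for 91 members. Of these, 78 (85.7%) were CpG-rich, meaning a GC content of at least 50% and an observed to expected CpG ratio of at least 0.6, against 48.3% of all 17492 protein-coding genes with such a promoter. Among genes with a CpG-rich promoter, a shared region was held by 30 of 78 members (38.5%, 27.7 to 50.2), against 30.9% of all 8452 such protein-coding genes. The difference between members and all genes was thus smaller here than over the whole gene table, and it was not tested. CpG-rich promoters made up 85.7% both of the 35 members with a shared region and of the 56 members without one. The median GC content was 62.7% in members with a region and 59% in members without, against 64% and 55.3% over all protein-coding genes. The median CpG ratio was 0.872 and 0.815 in the members, against 0.87 and 0.499 over all genes.

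The Gtf genes encode subunits of general factors other than TFIID, though not all of them, and also the TFII-I family. Among the Gtf genes, shared regions lay at genes of TFIIIC, TFIIH, TFIIA, TFIIB and the TFII-I family. Of all protein-coding genes, 17.2% held a shared region. TFIIIC, which binds the internal promoters of tRNA genes, had regions at 5 of its 6 genes, Gtf3c2, Gtf3c3, Gtf3c4, Gtf3c5 and Gtf3c6, while Gtf3c1 held a peak in replicate 2 only. The Gtf3c4 region (chromosome 2, 28839977 to 28840857) lay nearer the end of Ddx31 (11 bp) than that of Gtf3c4 (57 bp). It was enriched over background 7.09-fold in replicate 1 (exact 95% interval 4.56 to 10.6) and 7.52-fold in replicate 2 (5.25 to 10.5). These are the authors' values at the peak summit, on each list's own scale; where a pair of folds is given without naming the libraries, that of replicate 1 stands first. The Gtf3c5 region (chromosome 2, 28582681 to 28583244) was enriched 6.47-fold (4.07 to 9.83) in replicate 1, and 7.302-fold (5.06 to 10.2) in replicate 2. Gtf3c6 was the sole member with more than 1 shared region: one covered its start, enriched 6.69-fold in replicate 1 and 4.48-fold in replicate 2, and the other lay 597 bp outside the far end of the gene, 65 bp from the end of Rpf2, with folds of 4.59 and 8.04. Gtf3c3 had folds of 5.55 and 5.21, and Gtf3c2 of 4.198 and 3.21.

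TFIIH, the factor with helicase and kinase activity that opens promoter DNA and also serves nucleotide excision repair, had regions at 4 of its 5 Gtf genes, Gtf2h1, Gtf2h3, Gtf2h4 and Gtf2h5. The share over all protein-coding genes was 17.2%. Gtf2h3 (chromosome 5, 124578708 to 124579437) was enriched 7.71-fold (5.05 to 11.3) in replicate 1, and 7.52-fold (5.25 to 10.5) in replicate 2, placing it at the 94.1 and 91.1 percentile of the peaks of each list by fold. At the other extreme, Gtf2h4 (chromosome 17, 35667286 to 35667758) was enriched 4.32-fold (2.44 to 7.16) in replicate 1, and 2.52-fold (1.69 to 3.62) in replicate 2, the lowest of all members in that library. Of the TFIIH regions, those at Gtf2h1, Gtf2h3 and Gtf2h4 lay nearer the end of a neighbour (Hps5, Eif2b1 and Vars2). Gtf2h1 (chromosome 7, 46795768 to 46796314) showed folds of 3.92 (2.22 to 6.502) and 6.68 (4.78 to 9.103), and Gtf2h5 of 4.11 and 3.67. Counting a region for the gene with the closest end alone, TFIIH kept 1 gene, Gtf2h5, and TFIIIC kept 4.

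Gtf2a1, the gene of the large TFIIA subunits, held a broad region of 2299 bp (chromosome 12, 91588374 to 91590672) that covered both of its annotated starts. Enrichment was 6.17-fold (3.83 to 9.45) in replicate 1, and 8.497-fold (5.86 to 11.95) in replicate 2, both above the median of their list. Neither Gtf2a2, the small subunit, nor Gtf2a1l, a germ cell relative of Gtf2a1, held a peak. Gtf2b, the single gene of TFIIB, which helps place the polymerase at the start, was enriched 4.37-fold in replicate 1 and 4.14-fold in replicate 2, both below the list median. None of the 4 genes of TFIIE and TFIIF held a shared region, which 17.2% of all protein-coding genes held. Gtf2e2 and Gtf2f1 held a peak in replicate 2 only, and Gtf2e1 and Gtf2f2 held none. In the TFII-I family, whose proteins bind initiator and other elements, Gtf2i and Gtf2ird2 held shared regions and Gtf2ird1 held a peak in replicate 1 only. The Gtf2i region (chromosome 5, 134313530 to 134315242) was the sole one in a gene interior, 3292 bp from the nearer end, but its summits lay 713 bp and 947 bp downstream of an annotated start. Its folds were 5.55 (3.36 to 8.698) and 4.33 (2.97 to 6.12), and those of Gtf2ird2 were 4.62 and 5.11.

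Among the Taf genes, 5 of 13 TFIID subunit genes held a shared region, Taf4, Taf5, Taf8, Taf9 and Taf10. Of all protein-coding genes, 17.2% held one. With the closest gene end alone counted, TFIID kept 4 genes. Taf4, a core TFIID subunit that contacts activators, had the highest folds of the Taf genes in both libraries: 7.71 (5.05 to 11.3) for replicate 1, 9.601 (6.73 to 13.3) for replicate 2. Its region (chromosome 2, 179976458 to 179977309) was counted for no other protein-coding gene. Taf9, a histone-fold subunit shared by TFIID and SAGA, had folds of 6.17 (3.83 to 9.45) and 4.75 (3.31 to 6.61) in replicates 1 and 2. Its region (chromosome 13, 100650733 to 100651435) was also counted for Rad17 and Ak6. It lay nearer the end of Rad17 (23 bp) than that of Taf9 (259 bp). Taf8, another histone-fold subunit, had folds of 5.55 (3.36 to 8.698) and 5.97 (3.87 to 8.83) at chromosome 17, 47501948 to 47502640. Taf5, the WD-repeat subunit, had folds of 3.97 (2.403 to 6.22) and 5.85 (3.95 to 8.36) at chromosome 19, 47067708 to 47068085, and Taf10, which has a histone fold and is also in SAGA, of 3.78 and 4.66.

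The other TFIID genes divided evenly: Taf2, Taf3, Taf6 and Taf7 held a peak in replicate 2 only, and Taf1, Taf11, Taf12 and Taf13 held none. All 4 genes of SL1, the TAF complex of RNA polymerase I (Taf1a, Taf1b, Taf1c and Taf1d), were without a peak in either list. So were 64.3% of all protein-coding genes. Taf15, an RNA-binding protein of the FET family that associates with TFIID, had 12 reads at its summit in replicate 1 and 16 in replicate 2, with folds of 4.01 and 2.91. Of the paralogues, Taf4b held a shared region (folds 4.01 and 5.49), Taf9b on the X chromosome held a peak in replicate 1 only, and Taf7l and Taf7l2 held none. Of the TAF-like genes of SAGA, Taf6l held a shared region and Taf5l a peak in replicate 2 only. The Taf6l region (chromosome 19, 8774218 to 8775057; folds 5.14, 3.19 to 7.88, and 3.63, 2.400 to 5.295) lay nearer the end of Tmem179b.

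Among the Med genes, which encode Mediator, shared regions lay at Med6, Med11 and Med17 of the head module, Med9 of the middle module, the scaffold Med14, Med24 of the tail, and Med12l and Med13 of the kinase module. Med6 (chromosome 12, 81594770 to 81595373) was enriched 6.55-fold (4.25 to 9.69) in replicate 1, and 9.88-fold (6.96 to 13.6) in replicate 2, the highest of the Med genes in each. Med14, the subunit that joins the modules, had folds of 6.17 (3.83 to 9.45) and 6.04 (3.84 to 9.08) in a region at chromosome X, 12761523 to 12762462. Only 17 of 963 protein-coding genes on the X chromosome (1.77%) held a shared region, and Med14 was one of them. Of the other X-linked members, Med12, Taf1 and Taf7l held no peak.

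Med11 (chromosome 11, 70451819 to 70452233) was enriched 4.32-fold (2.44 to 7.16) in replicate 1, and 7.92-fold (5.39 to 11.3) in replicate 2, while Med17 (chromosome 9, 15279563 to 15280166) showed folds of 3.795 (2.23 to 6.11) and 5.56 (3.78 to 7.899). For both genes the fold was below the list median in replicate 1 and above it in replicate 2. Folds were 3.64 and 4.96 at Med9, 4.01 and 5.99 at Med12l, 6.17 and 4.16 at Med13, and 4.48 and 2.95 at Med24. Mediator had peaks at 8 genes according to replicate 1 (26.7%, against 20.9% of all protein-coding genes) and at 17 genes according to replicate 2 (56.7%, against 32.6%). The 9 genes with a peak in replicate 2 only were Med1, Med8, Med16, Med19, Med22, Med25, Med26, Med29 and Med31. None of the 4 genes placed between head and tail (Med27, Med28, Med29 and Med30) held a shared region, which 17.2% of all protein-coding genes held. At all 8 Med genes the closest protein-coding gene end was that of the Med gene itself.

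Among the Polr genes, RNA polymerase II held shared regions at 4 of the 8 genes specific to it, Polr2a, Polr2b, Polr2i and Polr2m. Of all protein-coding genes, 17.2% held one. Polr2m, whose human counterpart encodes GDOWN1, a protein that associates with RNA polymerase II and makes it depend on Mediator, had the highest folds of all 105 members in both libraries. Its region (chromosome 9, 71485218 to 71486322) was enriched 11.7-fold (8.34 to 16.03) on 37 summit reads of replicate 1, and 12.2-fold (9.32 to 15.7) on 58 summit reads of replicate 2. It ranked 23 of 3943 and 52 of 6403 by −log10 p. Polr2i, a small subunit that acts in start site choice and fidelity in yeast, had folds of 7.25 (4.79 to 10.6) and 7.88 (5.63 to 10.7) at chromosome 7, 30231611 to 30232338. Polr2a, the catalytic subunit with the C-terminal repeat domain, had folds of 5.32 (3.27 to 8.24) and 4.82 (3.28 to 6.85) at chromosome 11, 69758136 to 69759577, and Polr2b, the second-largest subunit, of 5.795 (3.73 to 8.64) and 4.795 (3.22 to 6.899) at chromosome 5, 77309748 to 77310779.

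None of the 5 genes of subunits shared by all 3 polymerases (Polr2e, Polr2f, Polr2h, Polr2k and Polr2l) held a shared region. Of all protein-coding genes, 17.2% held one. Polr2h held a peak in each list, with folds of 4.01 and 2.87, but these did not overlap; their summits lay at −1633 bp and −89 bp from a start, negative values being upstream. For RNA polymerase I, Polr1a, the catalytic subunit, held a shared region at chromosome 6, 71908462 to 71908975, with folds of 5.54 (3.35 to 8.68) and 4.53 (2.94 to 6.700), and Polr1b and Polr1e held no peak. Polr1c and Polr1d, shared by polymerases I and III, held a peak in replicate 2 only. For RNA polymerase III, 4 of 10 genes held one: Polr3d, and Polr3c, Polr3f and Polr3g, whose products form a subcomplex used in initiation. Polr3f (chromosome 2, 144527205 to 144527941) was enriched 6.700-fold (4.26 to 10.1) in replicate 1, and 4.76-fold (3.28 to 6.697) in replicate 2. Polr3c showed folds of 5.55 (3.36 to 8.698) and 3.87 (2.56 to 5.64) at chromosome 3, 96727382 to 96728045, and Polr3d of 4.01 and 3.67. Polr3g showed folds of 4.62 (2.67 to 7.55) and 7.96 (5.38 to 11.4) at chromosome 13, 81710914 to 81712141, while its alternative form Polr3gl held no peak. The regions at Polr1a, Polr2b, Polr3c, Polr3f and Polr3g all lay nearer the end of another gene, so with the closest gene end alone counted, 4 Polr genes were kept (14.3%, against 13.7% of all protein-coding genes). RNA polymerase II kept 3 of these and RNA polymerase III kept 1, Polr3d.

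**Figure D2:**
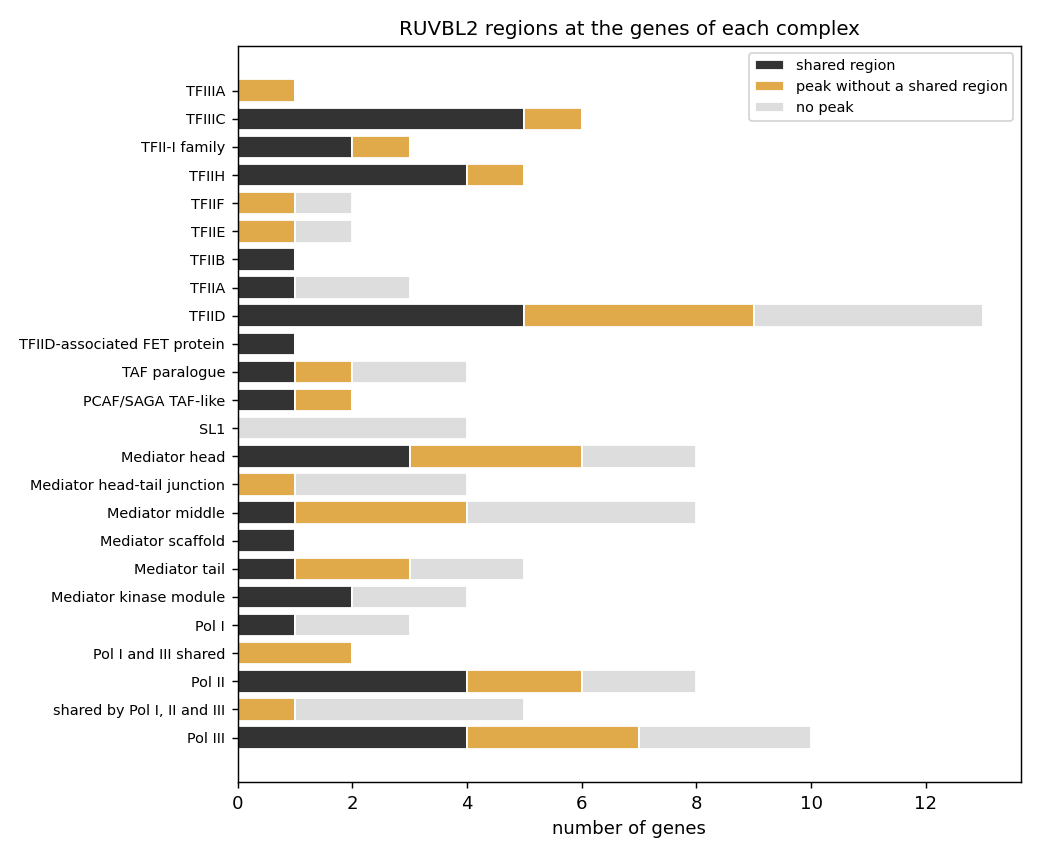
Number of members (horizontal axis) with a shared region, with a peak but no shared region, and with no peak, for each complex or class. TFIIIC (5 of 6) and the TFIIH genes with a Gtf symbol (4 of 5) mostly have shared regions, while SL1 (0 of 4) has no peak at any. With the closest gene end alone counted, TFIIIC keeps 4 genes and TFIIH keeps 1. The 5 TFIIH genes without a Gtf symbol, none with a shared region, are not drawn. Over all protein-coding genes, 17.2% hold a shared region and 64.3% hold no peak.

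The folds of the members lay in the ordinary range of these lists. Over the 39 member regions the median fold was 5.32 in replicate 1, against 5.05 over all 3111 shared regions, and 5.11 in replicate 2, against 5.35. The members were thus slightly above all shared regions in one library and slightly below in the other. The reads at a summit ranged from 12 to 37 in replicate 1 and from 16 to 58 in replicate 2, so each fold rests on few reads. In replicate 1, 20 of 38 members had the lowest background of the list, 2.24 reads, and 17 of 38 shared a fold with another member. Of the 38 members, 15 were above the median fold of the list in both libraries, 8 were below it in both and 15 were above it in 1 library only. The 8 low ones were Gtf2b, Gtf2h4, Gtf2h5, Gtf3c2, Taf10, Taf15, Med24 and Polr3d.

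**Figure D3:**
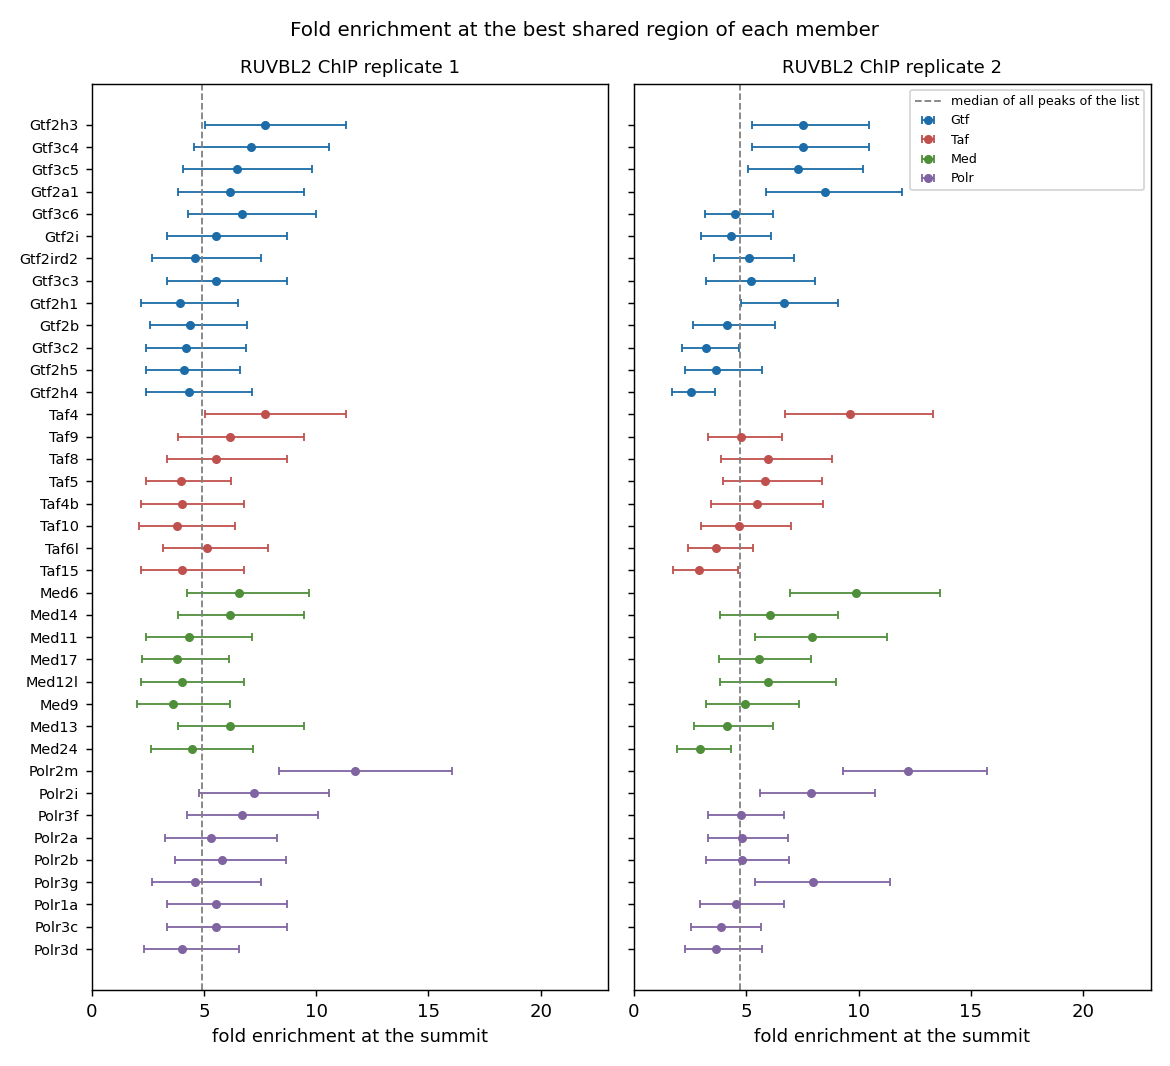
Fold enrichment at the summit (horizontal axis) of the best-ranked shared region of each of the 38 members in replicate 1 (left) and replicate 2 (right), with exact Poisson 95% intervals of the read count and the median of all peaks of the list (dashed). Polr2m lies furthest to the right in both, at 11.7 and 12.2.

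Most of the regions lay at transcription starts. Of 35 members with a shared region and an annotated start, the summit lay within 1000 bp of a start in 32 in replicate 1 and in 33 in replicate 2 (91.4% and 94.3%, against 86.3% and 86.4% of all 3093 protein-coding genes with a shared region and a start). The region covered a start of its gene in 29 of the 35. Summits lay upstream in 16 members and downstream in 19 in replicate 1, and in 15 and 20 in replicate 2. Over all 3093 such genes the numbers were 1035 upstream and 2058 downstream in replicate 1, and 1061 and 2032 in replicate 2. The median distance of the members' summits from the start was 153 bp in replicate 1 and 203 bp in replicate 2. It was 205 bp and 194 bp over all such genes. The summits of the 2 libraries were a median of 86 bp apart over the member regions and 93 bp over all shared regions. Med12l lay furthest out among the genes plotted, with summits at −1301 bp and −631 bp from its 1 annotated start. That start lies inside the gene, and so does the region, with its midpoint 581 bp from the nearer gene end. The regions counted for Gtf2h4 and Taf6l lay at the far end of the gene, 6257 bp and 11477 bp downstream of the start in replicate 1, and within 1 kb of the starts of Vars2 and Tmem179b.

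**Figure D4:**
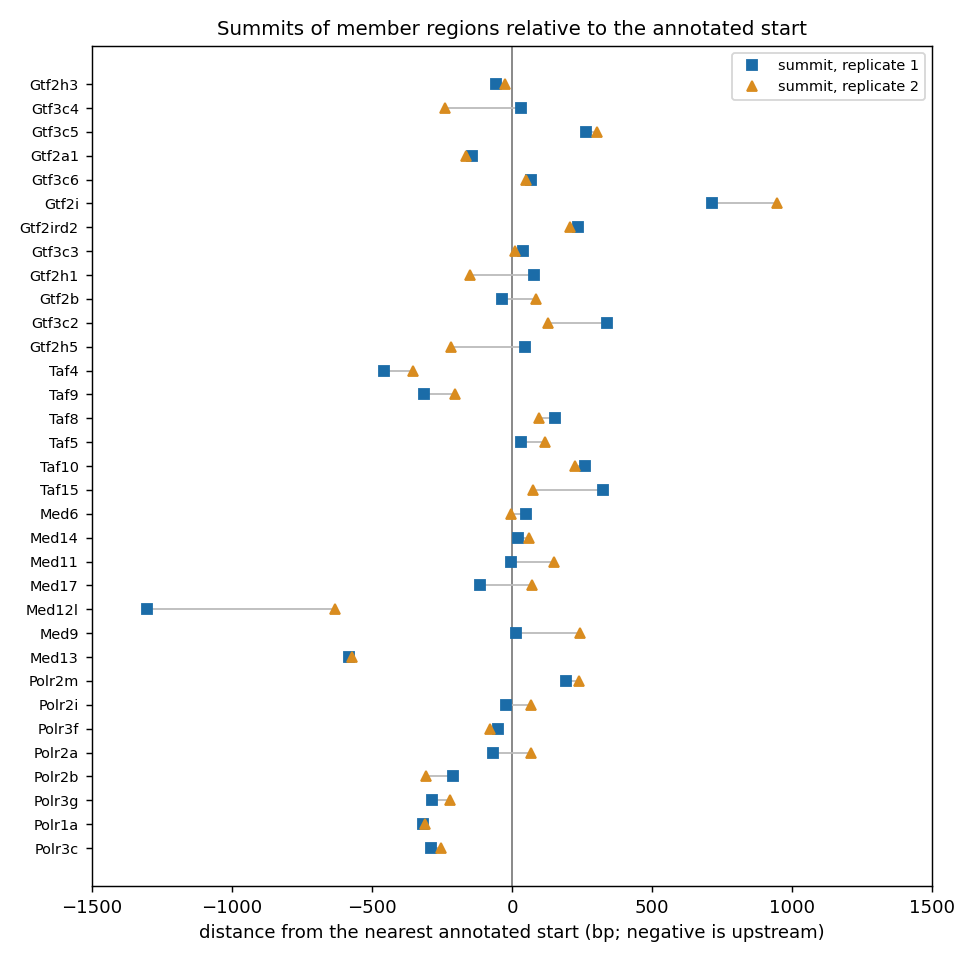
Distance in bp from the nearest annotated start to the summit in replicate 1 (squares) and replicate 2 (triangles) for 33 members with a shared region; negative values are upstream. Most summits lie within 500 bp of the start, and Med12l and Gtf2i lie outside that range in both libraries, as does Med13 at −580 bp and −571 bp.

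Several member genes start back to back with a neighbour. A head-to-head gene was defined as one with a protein-coding start on the other strand, up to 1000 bp upstream or overlapping by up to 100 bp. Of 24 head-to-head members, 10 held a shared region (41.7%, 22.1 to 63.4), against 25 of 67 other members (37.3%, 25.8 to 49.99). Over all protein-coding genes the shares were 39.9% of 1515 head-to-head genes and 15.6% of 15977 others. The 10 were Gtf2h1, Gtf2h3, Gtf2h5, Gtf3c4, Taf9, Polr1a, Polr2i, Polr3c, Polr3f and Polr3g. Starts were 17 bp apart for Gtf2h3 and Eif2b1, a translation initiation factor subunit, and 46 bp apart for Gtf3c4 and the helicase gene Ddx31. They were 172 bp apart for Polr3c and Rnf115, 291 bp for Polr1a and Ptcd3, and 331 bp for Polr3f and Dzank1. Which of the paired genes a region belongs to was not tested. Regions of 21 of the 38 members were counted for no other protein-coding gene, among them those of Gtf2a1, Gtf2b, Gtf3c5, Taf4, Taf5, Med6, Med14 and Polr2m.

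Members with a peak in one list only were mostly found in the longer list. A peak in replicate 2 only was held by 25 members (23.8%), against 14.9% of all protein-coding genes. A peak in replicate 1 only was held by 3, Gtf2ird1, Taf9b and Polr2c (2.86%), against 3.14% of the gene table, so that share was at the background. Beside those named with their complexes, the genes with a peak in replicate 2 only were Gtf2h2 of TFIIH, Gtf3a, the RNA polymerase III factor for the smallest ribosomal RNA of the large subunit, Polr2j, Polr3a, Polr3b and Polr3e. Their folds ran from 2.93 at Polr2j to 6.91 at Med1, with a median of 4.11. Their summits held 13 to 33 reads in replicate 2 (median 20), and those of the 38 members with a shared region 16 to 58 (median 27.5). For the 20 with an annotated start, the summit was at most 572 bp from it. No peak in either list was found at 38 members (36.2%), against 64.3% of all protein-coding genes. For these the nearest peak of replicate 2 was between 4422 bp and 720297 bp away (median 34375 bp).

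No region counted for a member lay close to the 3 kb limit. The region furthest outside a member gene, at Gtf3c6, had its midpoint 597 bp from the gene, followed by Med13 at 532 bp and Polr3g at 514 bp. The nearest miss was Polr3a, 3854 bp from a shared midpoint, followed by Polr1e at 6542 bp and Med25 at 7394 bp.

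Of 48 further transcription machinery genes that do not carry these symbols, 22 held a shared region (45.8%, 31.4 to 60.8), against 17.2% of all protein-coding genes. Among genes of the TATA-binding protein and its partners, Tbp, Tbpl1, Btaf1 and Drap1 did. Of the 2 Tbp regions, the stronger lay 1627 bp upstream of the Tbp start and nearer the end of the proteasome gene Psmb1. It was enriched 8.63-fold (5.79 to 12.4) in replicate 1, and 14.5-fold (10.96 to 18.8) in replicate 2. The other Tbp region, 117 bp downstream of the start, had folds of 3.09 and 2.79. None of the 5 TFIIH genes without a Gtf symbol (Ercc2, Ercc3, Cdk7, Ccnh and Mnat1) held one, although Cdk7, Ccnh and Mnat1 held a peak in one list. Pol I factors Ubtf and Rrn3 held regions, as did Brf1 and Maf1 for Pol III, Snapc1 and Snapc2 of the small nuclear RNA activator, Cdk8 of the Mediator kinase module, and the elongation factor genes Tcea1 and Tcea2. Of 12 SAGA or ATAC genes, 6 did: Supt7l, Supt20, Tada3, Sgf29, Usp22 and Atxn7. With the closest gene end alone counted, 4 of the 12 held a region. Of 8 genes for polymerase assembly factors, Rpap1 (folds 8.83 and 7.604), Rpap2 and Uri1 did, and Rpap3 and Pih1d1, which with the RUVBL proteins form R2TP, held no peak.

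Promoter letters, over 250 bases before to 50 after a start and on both strands, were compared with those of all genes, as a description. The Sp1 letters GGGCGG were present in 71.4% of the 35 members with a shared region and 64.3% of the 56 members without one. Over all 17492 promoters the shares were 72.1% of 3093 genes with a region and 44.3% of 14399 without, so the members with a region were close to all genes with one. The ETS letters CCGGAAG were present in 22.9% of members with a region and 44.6% of members without one, and over all genes in 23.6% with a region and 10.7% without. The order thus ran the other way in the members, whose share with a region was close to that of all genes with one. Among CpG-rich promoters they were present in 37.2% of 78 members, against 21.4% of all 8452 genes, while the Sp1 letters were present in 75.6% and 79%. The CCAAT letters were present in 31.4% of members with a region and 35.7% of members without, against 38.9% and 43.1% over all genes. TATAAA was present in 3 members with a region, Gtf3c6, Taf5 and Polr2a, and in 10 without (8.57% and 17.9%), against 6.92% and 16.5% over all genes. These matches were counted anywhere in the promoter, and the one in Taf5 begins 246 bases before the start. The YY1 motif, which does not contain the Sp1 letters, lay in 2 members with a region, Taf4 and Taf5, and in none of the 56 without. In Taf4 it begins 3 bases before the start, as the printed sequence shows, and in Taf5 at base 15 after the start. Over all genes it was present in 3.78% of promoters with a shared region and 0.472% of those without. TGACGTCA, the cyclic AMP response element, was present in 0 of 35 members with a region and in 4 of 56 without (7.14%), against 4.33% and 2.16% over all genes, where the order was the reverse. The NRF1 motif was in none of the 91 member promoters, against 1.47% of all promoters.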

How the data were processed

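RUVBL2 ChIP DNA and input DNA of mouse hypothalamus were sequenced in 4 libraries; the deposited files used were 1 peak list and 1 summit list for each of the 2 ChIP libraries, so peaks were called per library. Per the submitters' processing notes the build was GRCm38 and the tools were MACS2 2.1.0, Bowtie2 2.3.4.1, Trimmomatic 0.33, bcl2fastq 2.17 and ChIPseeker. Tool settings, the peak calling control and total read numbers were not found in the labels. Each deposited peak carries the authors' fold enrichment (a ratio to background), −log10 p, −log10 q, and a score of 10 times the −log10 q without its decimals. Peaks of replicate 2 are named Hyp3 in its list, while the sample is titled Hyp2; the sample record was followed.

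Replicate 1 had 3943 peaks and replicate 2 had 6403. Summit read counts were solved from fold and −log10 p; a whole number matched 100% of peaks of each list within a relative tolerance of 0.0001, and the step was tested on simulated data. Intervals of folds are exact Poisson intervals of that read count with the background held fixed, and intervals of shares are exact binomial ones. Both cover counting error only. Ranks are by −log10 p and percentiles by fold, within a list.

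Genes came from the RefSeq table of GRCm38.p6, and starts, strands and promoter letters from RefSeq promoters of the same build. The starts were used for 91 members. The other members, among them Med24, Polr3d and Taf4b, were not matched. Gene rows in the first 3 Mb of all chromosomes but Y, a gap in the build, were left out. Exons and UTRs were not assigned.

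Members and lists were chosen with earlier results of these data known, and no test was run. Named genes were, by rule, all members with a shared region, with full values for the 4 best by worse rank in each symbol family, for the member with an interior region and for members whose region lay nearer the end of another gene; the CpG limits, the head-to-head comparison and the extremes of ranges were chosen after the values were seen. Complex membership was assigned from general knowledge. Alternatives changed the window, the gene part, the nearest gene, the overlap, the threshold and the replicate. Python 3.11.15, pandas 2.3.3, NumPy 2.4.6 and SciPy 1.17.1 were used.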

Additional observations from a re-analysis of the deposited data

How the results depend on the processing

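The counts of genes with a shared region were recomputed under 11 alternatives each, 1 of them, a midpoint within 1 kb of an annotated start, chosen after the data were seen. Of 66 values, 48 were within 1.5 times the reported count, and the members' share was above that of all protein-coding genes under all 11 alternatives. The families were selected on peaks of these same lists, so this describes the effect of the settings only. A limit to CpG-rich promoters was not among the alternatives. At a −log10 q of at least 5, the count fell to 21 members (20%, against 8.5% of all protein-coding genes). By family there were 7 Gtf (30.4%), 4 Taf (16.7%), 3 Med (10%) and 7 Polr genes (25%). Of the other machinery genes, 11 (22.9%) held a shared region at this threshold. The Med share thus lay near that of all genes. With the top 1000 peaks of each list the count fell to 8 members (7.62%, against 3.08%). These were 4 Gtf (17.4%), 1 Taf (4.17%), 1 Med (3.33%) and 2 Polr genes (7.14%). The other machinery genes fell to 2 (4.17%). The Taf, Med and other machinery shares were thus near that of all genes. For the Polr genes the count was 4 with the nearest gene end only (14.3%, against 13.7% of all protein-coding genes). It was also 4 with 50% overlap of both peaks (14.3%, against 12.3%). With a peak of a single replicate in place of a shared region, the count was 42 members (40%) for replicate 1 and 64 (61%) for replicate 2. Of all protein-coding genes, 20.9% and 32.6% held such a peak. In the same order, the counts were 14 and 18 for Gtf (60.9% and 78.3%) and 9 and 13 for Taf (37.5% and 54.2%). They were 8 and 17 for Med (26.7% and 56.7%) and 11 and 16 for Polr (39.3% and 57.1%). For the other machinery genes they were 22 and 38 (45.8% and 79.2%). The higher value came from replicate 2 each time, as it did over all genes. The cause of these differences was not tested. No paired analysis was possible because no values of the input libraries were used and the counts come from no test. Summits of 12 to 58 reads limit what the folds can tell apart.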
